A study of Mus musculus with 6 samples.

Results

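The p53 pathway was described here through 35 genes: the transcription factor gene Trp53, its inhibitors Mdm2 and Mdm4, and 32 genes that p53 is known to switch on or that act beside it. The 35 genes were taken by symbol from the authors' deposited table of 15982 genes. All 35 were present, each with 1 entry. No measured value was used to choose them in the rule, although earlier results of the same table were known.

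RNA came from bone marrow-derived macrophages (BMMs) of control mice (Ctrl) and of mice labelled as a myeloid-specific knockout of the mitotic checkpoint kinase Bub1 (Bub1 cKO). Cells of both groups grew in 20 ng/ml M-CSF for 3 days, and for 2 more days with 50 ng/ml RANKL added, the cytokine that drives macrophage precursors to become osteoclasts, while M-CSF stayed at 20 ng/ml. The labels list 3 libraries per group, each from 25 ng of RNA in a 3' tag kit, and do not say whether these were separate animals or cultures, so p-values cover library-to-library spread that could be technical. No source used here gives the Cre driver, the floxed exons, the strain or the age of the mice. The authors' deposited table gives 1 expression value per gene and group, so values per library were not analysed here. These values were read as TPM, a share of all transcripts scaled to a fixed total, because they sum to 999891 in Ctrl and to 999954 in Bub1 cKO. CPM, the same without division by transcript length, would sum alike. Whether the values allow for transcript length is therefore not known, and rankings of genes by level below are rankings of the deposited values.

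p53 is a transcription factor that is kept low by the ubiquitin ligase Mdm2 and its partner Mdm4. DNA damage, failed chromosome segregation and other stresses release it, and it then induces genes that stop the cell cycle, repair DNA, limit oxidative stress or start apoptosis. Mdm2 is itself a p53 target, which closes a negative feedback loop, and Cdkn1a encodes p21, the inhibitor of cyclin-dependent kinases through which p53 stops the cycle. Because p53 is regulated mostly as a protein, its activity is commonly read from the RNA of its targets.

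p53 binds DNA as a tetramer that contacts a pair of 10-base half-sites. The 250 bases before the annotated starts were read for 28 of the 35 genes (37 starts, RefSeq sequence, GRCm38.p6) and searched for the p53 half-site consensus, which reads the same on both strands. A half-site was found in 11 of the 37 windows (29.7%), and in 7.13% of the 32851 windows of the same length over all genes. A pair of half-sites with up to 13 bases between them was found in 1 window of the 37, that of Cdkn1a, and in 21 of all 32851 (0.0639%). The window before the upstream start of Cdkn1a (chr17:29090729-29090978, plus strand, GRCm38.p6) is shown whole because it holds this pair. Capitals mark both half-sites that match the consensus in full. Near matches, such as the letters right after the second half-site, were not counted and stay in lower case. Which of these letters p53 binds was not tested.
Cdkn1a: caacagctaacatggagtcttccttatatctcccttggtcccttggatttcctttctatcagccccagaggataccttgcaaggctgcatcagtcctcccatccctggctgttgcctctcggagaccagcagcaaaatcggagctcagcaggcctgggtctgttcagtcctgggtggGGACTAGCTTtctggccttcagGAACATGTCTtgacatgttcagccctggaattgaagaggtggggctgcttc
The pair begins 73 bases before this start and 2863 bases before the downstream Cdkn1a start, whose own window holds no half-site.

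Of the 11 members with a half-site, 5 besides Cdkn1a are shown, each with its flanking bases in lower case and the half-site in capitals.
Trp53 (chr11:69580274-69580303, plus strand): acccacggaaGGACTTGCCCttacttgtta
Mdm2 (chr10:117710925-117710954, minus strand): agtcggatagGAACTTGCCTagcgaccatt
Ccng1 (chr11:40755452-40755481, minus strand): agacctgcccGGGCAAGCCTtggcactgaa
Aen (chr7:78895927-78895956, plus strand): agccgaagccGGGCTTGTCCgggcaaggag
Rps27l (chr9:66946296-66946325, plus strand): gggcttgttgAGACTTGTCCgggcgacacg
Rps27l has a second half-site farther upstream in the same window (chr9:66946193-66946222), not shown. The windows end at RefSeq starts. In the GENCODE M21 annotation Aen begins at 78895854 and Rps27l at 66946086, so their half-sites lie inside those gene bounds. These matches describe letters in a fixed window, in genes listed because p53 is known to act on many of them. Binding was not measured, and p53 sites outside the windows, in introns or farther upstream, were not searched.

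None of the 35 genes passed an adjusted p under 0.05 per the authors' deposited table, a threshold that 0.181% of all genes passed. The smallest adjusted p among them was 0.187 (Ccng2). At an unadjusted p under 0.05 there were 4 members (11.4%), beside 4.81% of all genes: Mdm2 and Rrm2b with higher values in Bub1 cKO, and Ccng2 and Btg2 with lower ones. Higher genes at that level made up 2.35% of the table and lower genes 2.46%. Of the 30 members that averaged 1 TPM or more, 3 had such a p, beside 6.27% of all genes at that level. The pathway as a whole had no shared direction. A statistic above 0 was found in 21 of 35 members and in 49.9% of all genes, while the deposited log2 change was above 0 in 17 of 35 and in 49.2% of all genes. The median statistic was 0.23 and the median deposited log2 change -0.00, beside -0.00 and -0.01 over the table.

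The table holds 2 log2 changes, and they have to be kept apart. The deposited log2 change is log2 of (Bub1 cKO + 1)/(Ctrl + 1) of the TPM values, which understates the change of low genes. The other is the change that the authors' test itself estimated, computed here as the statistic times its standard error and called the test's own log2 change below. The 95% intervals below belong to the latter.

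**Figure D1:**
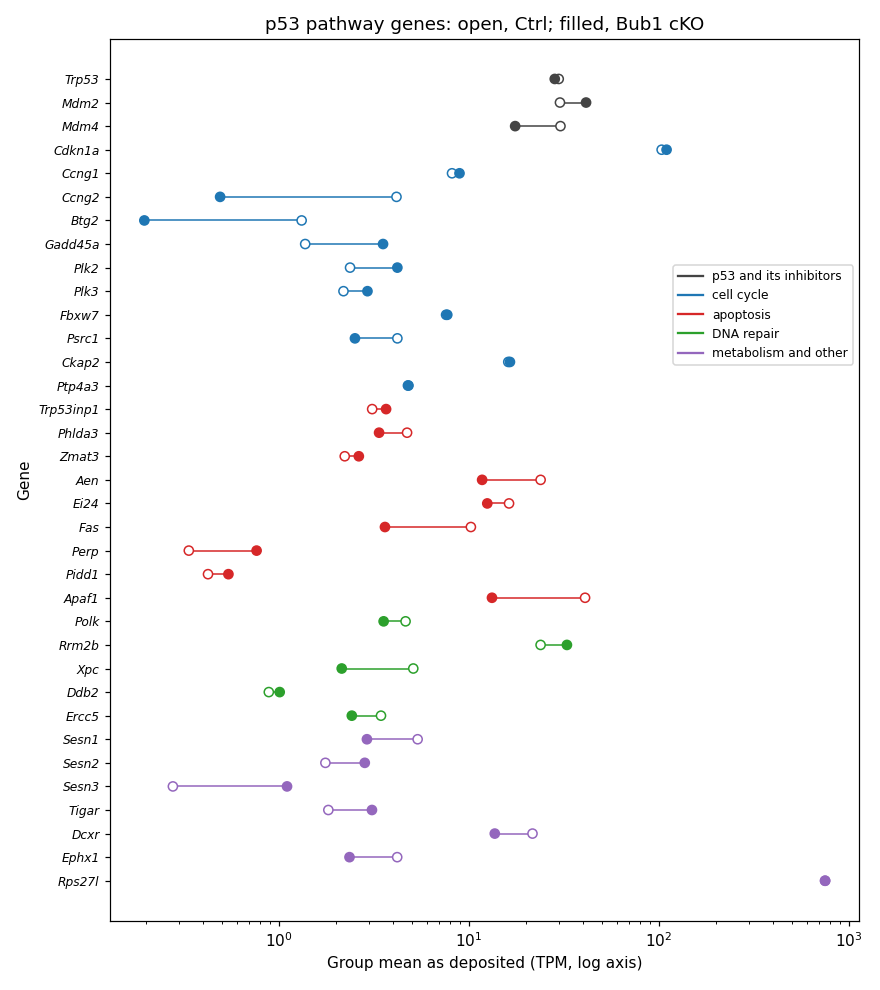
Group means of the 35 genes per the authors' deposited table, in TPM on a log axis, with open circles for Ctrl and filled circles for Bub1 cKO, coloured by role. Rps27l lies highest, at 752 and 751 TPM, and Cdkn1a next, at 104 and 110 TPM, both with circles that overlap, while Ccng2 (4.16 and 0.491 TPM) and Btg2 (1.32 and 0.196 TPM) have circles far apart.

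Trp53 and its inhibitors were each near 30 TPM in Ctrl. Trp53 (chromosome 11, 69580359 to 69591873, plus strand, GRCm38) stood at 29.8 TPM in Ctrl against 28.4 TPM in Bub1 cKO per the authors' deposited table. Its deposited log2 change was -0.07 and the test's own was 0.36, with a 95% interval from -0.35 to 1.08 (unadjusted p = 0.315 per the authors' deposited table). No difference in Trp53 RNA was detectable, and the interval runs from 0.786 to 2.11 times the Ctrl level.

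Mdm2 (chromosome 10, 117688875 to 117710758, minus strand) went from 30.2 TPM in Ctrl to 41.4 TPM in Bub1 cKO per the authors' deposited table, a ratio of 1.37. The deposited log2 change of 0.44 and the test's own of 0.51 lie close together, with a standard error of 0.19 and an interval from 0.13 to 0.89. In the authors' deposited table its unadjusted p was 0.009 and its adjusted p 0.665, so the difference did not pass over the table. Mdm4 (chromosome 1, 132959484 to 133030561, minus strand), the related protein that masks the activation domain of p53, stood at 30.4 and 17.5 TPM per the authors' deposited table. The deposited log2 change of Mdm4 was -0.76, but the test's own was -0.22, with an interval from -0.90 to 0.45 and an unadjusted p of 0.514. Its pseudogene Mdm4-ps, which has a row of its own, stood at 0.757 and 0.373 TPM per the authors' deposited table. Whether reads were shared between them was not tested.

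Among the 11 genes of the cell cycle group, Cdkn1a (chromosome 17, 29090976 to 29100727, plus strand) had the highest level and a narrow interval. It stood at 104 TPM in Ctrl against 110 TPM in Bub1 cKO per the authors' deposited table, with a deposited log2 change of 0.085 and a test's own of 0.10 (interval -0.26 to 0.46, unadjusted p = 0.587). Changes of Cdkn1a beyond 1.37-fold upward or below 0.836 of the Ctrl level lie outside this interval. Fbxw7, the substrate receptor of a ubiquitin ligase that degrades cyclin E and Myc, stood at 7.60 and 7.71 TPM per the authors' deposited table, with an interval from -0.72 to 0.85.

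The cyclin G genes gave unlike values. Ccng1, a p53 target whose product recruits a phosphatase to Mdm2, stood at 8.16 and 8.94 TPM per the authors' deposited table (test's own log2 change 0.33, interval -0.36 to 1.02). Ccng2, a cyclin found in cells that leave the cycle and known mainly as a target of FOXO factors, was at 4.16 TPM in Ctrl against 0.491 TPM in Bub1 cKO per the authors' deposited table. Ccng2 (chromosome 5, 93267257 to 93276231, plus strand) had the smallest p of the 35 genes (0.00068 per the authors' deposited table), at rank 58 of the 15982 genes. Its deposited log2 change was -1.79, or -0.74 with a pseudocount of 5, and the test's own was -3.10, with an interval from -4.89 to -1.31. Its adjusted p of 0.187 misses the threshold. The difference between both cyclin G genes was not tested.

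Btg2, an antiproliferative gene and p53 target, was low in both groups, at 1.32 TPM in Ctrl against 0.196 TPM in Bub1 cKO per the authors' deposited table. Its unadjusted p of 0.049 and adjusted p of 0.985 per the authors' deposited table come with a test's own log2 change of -2.75 (interval -5.50 to -0.01), beside a deposited one of -0.96. Gadd45a, a stress sensor of cycle arrest and repair, stood at 1.38 and 3.54 TPM per the authors' deposited table, with an interval from -1.36 to 3.56 that includes 0. The polo-like kinases Plk2 and Plk3, which respond to stress, stood at 2.37 and 4.21 TPM and at 2.19 and 2.93 TPM per the authors' deposited table, and neither interval excludes 0. Plk3 shares exon sequence with Tctex1d4 on the opposite strand, and whether counting used the strand is not stated.

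Psrc1 and Ckap2, p53-responsive genes whose products bind spindle microtubules, stood at 4.21 and 2.52 TPM and at 16.1 and 16.5 TPM per the authors' deposited table. Neither was distinguishable between the groups, with unadjusted p of 0.749 and 0.566 per the authors' deposited table. The deposited log2 change of Ckap2 was 0.03 and the test's own -0.31, with an interval from -1.38 to 0.75. Ptp4a3, a phosphatase gene, had 4.81 and 4.78 TPM per the authors' deposited table.

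In the apoptosis group, 3 genes had much lower TPM in Bub1 cKO without passing the test. Apaf1 (chromosome 10, 90989311 to 91082770, minus strand), the scaffold of the apoptosome that activates caspase-9, stood at 40.9 TPM in Ctrl against 13.2 TPM in Bub1 cKO per the authors' deposited table, a ratio of 3.09. Its deposited log2 change was -1.56 and the test's own -0.90, with an interval from -1.84 to 0.04 and an unadjusted p of 0.061 per the authors' deposited table. Fas, the death receptor, stood at 10.3 and 3.62 TPM per the authors' deposited table, with a test's own log2 change of -0.61 and an interval from -2.61 to 1.38.

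Aen (chromosome 7, 78895854 to 78911209, plus strand), a nuclease induced by p53 in apoptosis, stood at 23.9 and 11.8 TPM per the authors' deposited table. The deposited log2 change of Aen was -0.96, yet the test's own was 0.53, with an interval from -0.32 to 1.38 that leaves the deposited value outside. The unadjusted p of Aen was 0.224 per the authors' deposited table. No direction can be given for Aen. The summed level of the 9 apoptosis genes, 102 TPM in Ctrl against 52.1 TPM in Bub1 cKO, differs mostly through these 3 genes, and 5 of the 9 statistics were above 0.

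The other apoptosis genes had smaller differences in TPM. Ei24, an endoplasmic reticulum protein, stood at 16.3 and 12.5 TPM per the authors' deposited table, and Phlda3, which restrains the kinase Akt, at 4.73 and 3.37 TPM. Trp53inp1, a p53 cofactor, was at 3.10 and 3.67 TPM per the authors' deposited table, and the RNA-binding protein gene Zmat3 at 2.22 and 2.64 TPM. Perp, a membrane protein of desmosomes, and Pidd1, the scaffold of a caspase-2 complex, were under 1 TPM in both groups per the authors' deposited table, and their standard errors were 2.13 and 1.58. As a ratio the difference of Perp was not small, at 2.27. Its test's own log2 change was 1.22, with an interval from -2.94 to 5.39.

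Of the 5 repair genes, Rrm2b had the smallest p. Rrm2b (chromosome 15, 37923952 to 37961318, minus strand), the p53-induced subunit of ribonucleotide reductase that supplies nucleotides for repair, went from 23.9 TPM in Ctrl to 32.9 TPM in Bub1 cKO per the authors' deposited table. Its deposited log2 change was 0.44 and the test's own 0.76, with an interval from 0.26 to 1.26. The unadjusted p was 0.003 and the adjusted p 0.411 per the authors' deposited table. The TPM ratio of Rrm2b, 1.38, is close to the 1.37 of Mdm2, while the test's own log2 changes were 0.76 and 0.51. The difference between both genes was not tested.

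The statistic was above 0 in 4 of the 5 repair genes, the 3 nucleotide excision repair genes among them, and in 49.9% of all genes. The deposited log2 change was above 0 in 2 of the 5 and in 49.2% of all genes. None of the 3 nucleotide excision repair genes had an interval that excludes 0. Xpc, which recognises damaged DNA, stood at 5.10 and 2.14 TPM per the authors' deposited table, a deposited log2 change of -0.96 beside a test's own change of 0.92 (interval -0.49 to 2.33, unadjusted p = 0.202). Ercc5, the endonuclease that cuts on the 3' side of the damage, stood at 3.45 and 2.42 TPM per the authors' deposited table, with deposited and test's own changes of -0.38 and 0.74 (interval -0.75 to 2.24, unadjusted p = 0.328). Ddb2, a sensor of ultraviolet damage, was at 0.886 and 1.01 TPM per the authors' deposited table with a test's own change of 0.42 and a standard error of 1.87, and it shares exon sequence with Acp2 on the opposite strand. Polk, a translesion polymerase, stood at 4.65 and 3.56 TPM per the authors' deposited table (unadjusted p = 0.548).

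In the metabolic group the sestrins, stress-induced inhibitors of mTORC1 signalling, had values on both sides of 0. Sesn1, the family member most tied to p53, was at 5.38 and 2.91 TPM per the authors' deposited table, while Sesn2 was at 1.76 and 2.84 TPM and Sesn3 at 0.277 and 1.11 TPM. All 3 intervals include 0, and the test's own changes were -0.65, 0.69 and 0.26. Tigar, which diverts glucose into the pentose phosphate pathway, stood at 1.82 and 3.09 TPM per the authors' deposited table (unadjusted p = 0.235). Dcxr, a carbonyl reductase, was at 21.7 and 13.7 TPM per the authors' deposited table, and the epoxide hydrolase gene Ephx1 at 4.20 and 2.36 TPM, with unadjusted p of 0.261 and 0.438. Rps27l, a ribosomal protein paralog that p53 induces, had the highest values of the 35 genes, at 752 and 751 TPM per the authors' deposited table. The deposited log2 change of Rps27l was -0.002 and the test's own 0.22, with an interval from -0.17 to 0.60 and an unadjusted p of 0.269. Rps27l is closely related to Rps27, so a split of reads between them is uncertain.

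**Figure D2:**
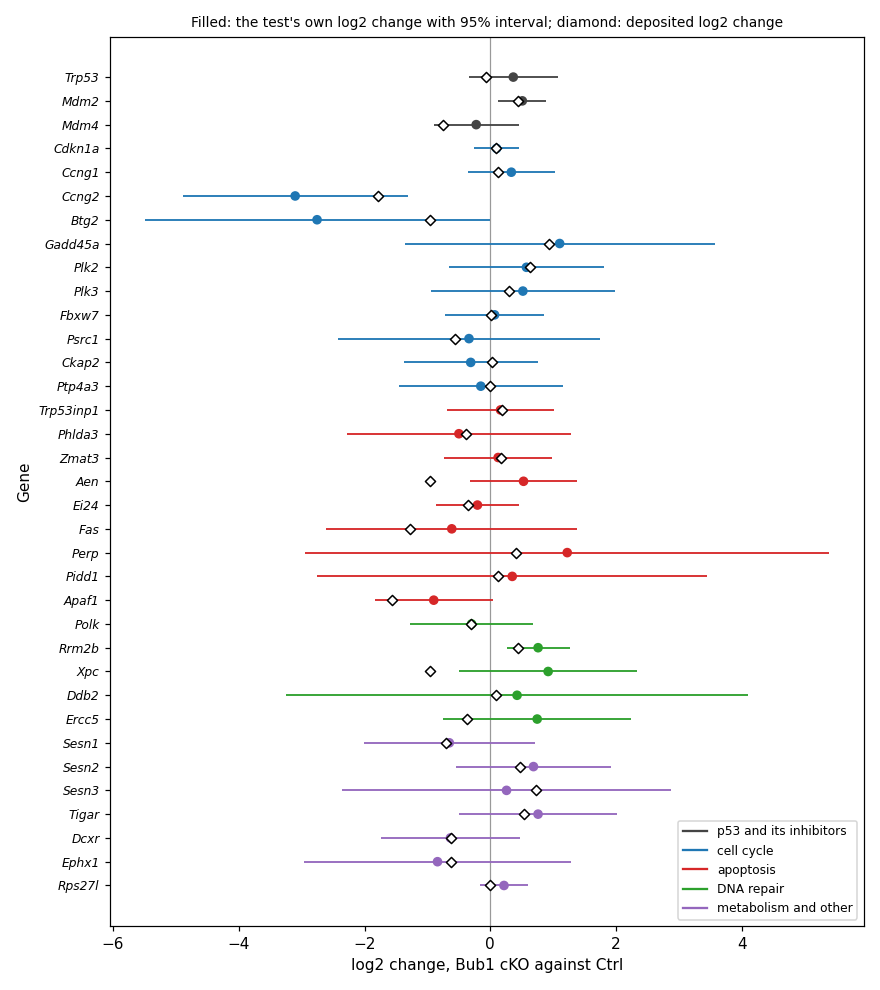
Log2 changes of the 35 genes, Bub1 cKO against Ctrl, with the test's own change as a filled point with its 95% interval, the deposited change as an open diamond, and colours by role. The intervals of Mdm2 and Rrm2b lie above 0 and those of Ccng2 and Btg2 below 0, and the diamonds of Aen and Xpc (-0.96 each) lie outside intervals centred at 0.53 and 0.92.

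The deposited and the test's own log2 changes lay more than 1 standard error apart in 10 of the 35 genes (28.6%), beside 10.7% of all genes. These were Trp53, Mdm4, Ccng2, Btg2, Aen, Apaf1, Rrm2b, Xpc, Ercc5 and Rps27l. For Ccng2 and Btg2 the TPM ratios without a pseudocount, 0.118 and 0.149, lay close to the test's own changes taken as ratios, 0.116 and 0.148. Their gap therefore reflects the pseudocount of 1 at low TPM. The signs were opposite in 6 genes (17.1%), beside 9.50% of all genes, namely Trp53, Ckap2, Aen, Xpc, Ercc5 and Rps27l.

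This disagreement moved with the number of transcripts annotated per gene (GENCODE M21). Where the mean over both groups reached 5 TPM, the changes were apart in 5 of 761 genes with 1 annotated transcript (0.657%). They were apart in 304 of 2779 genes with 2 to 5 transcripts (10.9%) and in 724 of 3590 genes with 6 or more (20.2%). Of the p53 pathway genes at that level, 6 of 9 with 6 or more transcripts and 0 of 5 with 2 to 5 were apart, and none had 1 transcript. Over all 35 genes, 8 of 17 with at least 6 transcripts and 2 of 18 with fewer were apart. Ccng2, with 6 transcripts, and Btg2, with 1, are in these counts, although their gap reflects the pseudocount. Mdm4 has 14 annotated transcripts, Aen 9, Apaf1 8 and Trp53 6. The part of transcript number in the disagreement was not tested.

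**Figure D3:**
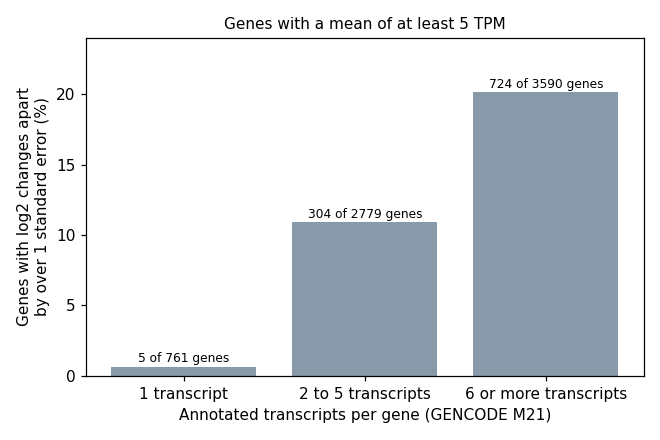
Share of genes (mean of both groups from 5 TPM up) whose deposited and test's own log2 changes lay more than 1 standard error apart, by the number of annotated transcripts, with the counts above the bars. The share was 0.657% for 1 transcript, 10.9% for 2 to 5 and 20.2% for 6 or more.

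Other genes of the pathway were taken from 3 lists chosen with earlier results of the table known. Of 24 upstream regulators and cofactors, all present, none passed an adjusted p under 0.05, and 1 had an unadjusted p under 0.05 with lower values (4.17%, beside 4.81% of all genes). This was Cdkn2a, the locus of p16 and of the Mdm2 inhibitor p19Arf, at 5.12 TPM in Ctrl against 0.429 TPM in Bub1 cKO per the authors' deposited table (unadjusted p = 0.035, adjusted p = 0.962). The damage kinases Atm and Atr stood at 12.6 and 14.5 TPM and at 4.64 and 11.5 TPM per the authors' deposited table, with unadjusted p of 0.764 and 0.152. The deposited log2 changes of Atm and Atr were 0.18 and 1.15, and the test's own -0.10 and 0.72. For Atm the signs are thus opposite. The statistics of this list were above 0 in 12 genes and below 0 in 12.

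Of 40 other p53 target genes 36 were in the table, with 18 statistics above and 18 below 0. None passed an adjusted p under 0.05. An unadjusted p under 0.05 was found for 4 with lower and 0 with higher values (11.1%, beside 4.81% of all genes). These were the glutathione peroxidase gene Gpx1 (605 and 428 TPM), the antiproliferative gene Btg1 (25.5 and 17.8 TPM), the autophagy regulator Dram1 (5.66 and 2.20 TPM) and the phospholipid transfer protein gene Pltp (1.70 and 0.177 TPM) per the authors' deposited table. Gpx1 had the smallest adjusted p of the list, 0.284 per the authors' deposited table. The apoptosis genes Bax and Bbc3 stood at 22.9 and 17.3 TPM and at 5.65 and 6.59 TPM per the authors' deposited table. Pmaip1 stood at 5.07 and 5.03 TPM per the authors' deposited table. None of these 3 had an unadjusted p under 0.5.

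Cell cycle genes that p53 lowers through p21 and the DREAM repressor complex gave 12 negative statistics of 16, with a median of -1.26 beside -0.00 over all genes. None passed an adjusted p under 0.05. Unadjusted p under 0.05 was found for 4 genes, all lower (25.0%, beside 4.81% of all genes). Cdc20, the activator of the anaphase-promoting complex, stood at 34.1 and 20.97 TPM per the authors' deposited table, and the mitotic kinase gene Cdk1 at 115 and 85.1 TPM. Plk1 stood at 29.4 and 20.2 TPM and Ccnb1 at 36.6 and 25.1 TPM per the authors' deposited table. Lower values of mitotic genes were part of the earlier results known when this list was made. Cdkn1a, the gene for p21, stood beside them at 104 and 110 TPM per the authors' deposited table.

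**Figure D4:**
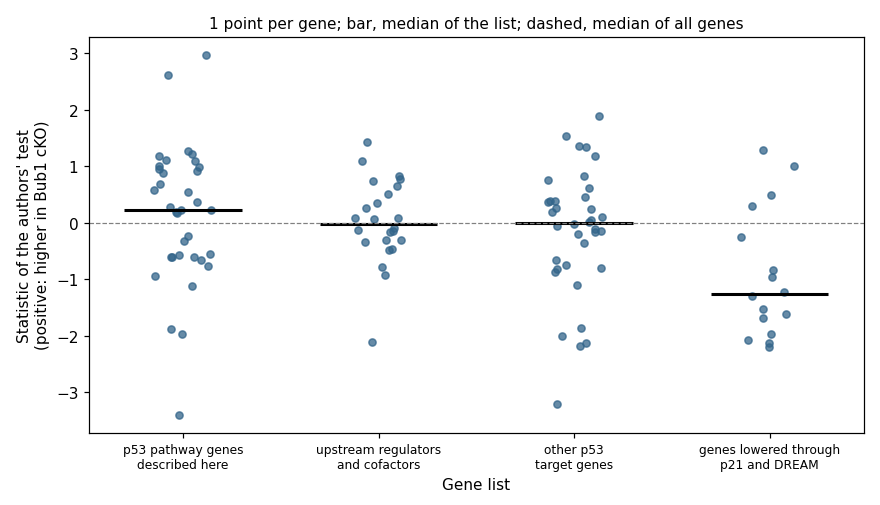
Statistic of the authors' test for each gene of the 35 and of the 3 other lists, with 1 point per gene, a bar at the median of the list and a dashed line at the median of all genes. The medians were 0.23 for the 35 genes, -0.01 for the upstream regulators and for the other p53 targets, and -1.26 for the genes lowered through p21 and DREAM.

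Facts of the whole series touch these values. Bub1 itself stood at 6.73 and 5.32 TPM per the authors' deposited table, with 0.985 as adjusted p, and 3' tags outside the deleted exons would still be counted, so this does not check the labels. All 8 macrophage markers and all 8 osteoclast markers were present in both groups, with summed levels of 2621 TPM in Ctrl against 1234 TPM in Bub1 cKO for the first and 1882 and 2169 TPM for the second. The lower first sum rests mostly on Lyz2, at 2141 and 762 TPM with an adjusted p of 0.00033 per the authors' deposited table. Because 1 gene dominates this sum, it does not measure macrophage content. An unadjusted p under 0.05 was found for 4 of 8 macrophage markers, 3 lower and 1 higher (50%, beside 4.81% of all genes). It was found for 4 of 8 osteoclast markers, all higher (50%). Statistics were above 0 in 2 macrophage and 6 osteoclast markers. No osteoclast marker passed an adjusted p under 0.05, with Nfatc1 smallest at 0.094 per the authors' deposited table. The part of these differences in the p53 pathway values was not tested. Of 9 erythroid markers 6 were present, with summed levels of 19.6 and 358 TPM, and Alas2 and Slc4a1 were listed at 0 in Ctrl. The globin genes Hbb-bs (5.44 and 77.3 TPM) and Hbb-bt (1.01 and 31.8 TPM) passed an adjusted p under 0.05 (0.00017 and 0.025) per the authors' deposited table. Hba-a1 (4.36 and 77.8 TPM) and Hba-a2 (8.83 and 169 TPM) did not. Of 12 neutrophil markers 11 were present, with summed levels of 102 and 241 TPM, and Elane, Camp and Retnlg were listed at 0 in Ctrl. Most of these sums came from S100a8 (41.9 and 92.8 TPM) and S100a9 (38.0 and 115 TPM) per the authors' deposited table. Cxcr2, at 2.59 and 10.9 TPM, was the 1 neutrophil marker past an adjusted p under 0.05 (0.036) per the authors' deposited table. Ltf had the opposite order in TPM, 12.3 and 6.74, and Mmp8 stood at 6.44 and 7.27 TPM per the authors' deposited table. The test's own log2 change of Ltf was 0.39 (unadjusted p = 0.826 per the authors' deposited table), beside a deposited -0.78, so no direction can be given for it. All 11 neutrophil statistics were above 0. The part of these other cells in the values of the p53 pathway genes was not tested. In bulk RNA, fewer cells of a type and less RNA per cell cannot be told apart.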

How the data were processed

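RNA was measured with a 3' tag kit, per the labels' protocols. The only file is a comparison the authors made with RaNA-seq, an online RNA-seq service, per the file header. No source used here gives the quantifier, genome build, annotation, depth or test. The deposited expression values were taken as TPM from their sums. In all 15982 genes the deposited log2 change matched, within 0.002, that of the TPM values with a pseudocount of 1. The deposited statistic and its standard error are scores of a test by the authors. Deposited p-values and adjusted p-values were used as given, with calls at an adjusted p under 0.05. Without values per library no model was fitted, and precision rests on the deposited standard error.

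From these, Python 3.11.15 and pandas 2.3.3 computed the test's own change with its 95% interval, counts, medians and adjustments of p repeated by Benjamini-Hochberg, a step tested on simulated data. Positions and transcripts come from GENCODE M21 (GRCm38), matched by gene ID without version for 15902 of the 15982 genes. All members are named; by rule both log2 changes with the interval and p are given for Trp53, Mdm2, Mdm4, Cdkn1a, members with an unadjusted p under 0.05, the 4 with the highest mean, and members whose 2 log2 changes differ in sign or by over 1 standard error; intervals of other members were added after their values were seen. Of other lists, up to 4 genes with the smallest p were named, and Atm, Atr, Bax, Bbc3 and Pmaip1 were chosen after their values were seen. The members and lists were chosen with earlier results of these data known.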

Additional observations from a re-analysis of the deposited data

How the results depend on the processing

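No member passed the threshold when it was set at an adjusted p of 0.1, or when p was adjusted again over genes averaging 1 TPM or more (smallest 0.132, Ccng2), 5 TPM or more (0.217, Rrm2b) or with 1 entry per symbol (0.187, Ccng2). At an unadjusted p under 0.05 there were 4. Members with a positive statistic numbered 21 of 35, and 8 of the 14 averaging 5 TPM or more, where fewer genes are counted. The median statistic was 0.33 for members of at least 1 TPM and 0.36 for those of at least 5 TPM. The median log2 change, -0.00 as deposited, was 0.16 with the test's own change and 0.006 after the median of all genes was subtracted, so its sign is not fixed; the cause was not tested. With the test's own change 10 of 35 members moved by over 1 standard error and 6 changed sign. With a pseudocount of 0.1 or 5, 1 moved (Ccng2, at -2.85 and -0.74) and 0 changed sign. No member symbol was repeated, so summing entries changed none. No paired analysis was possible because the table holds 1 value per group, and leaving out replicates could not be run for the same reason.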
